A study of Mus musculus with 4 samples.

Results

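The genes described here are 47 genes of the lysosome: 14 acid hydrolases, 4 soluble cofactors and lumenal proteins, 9 membrane proteins, 17 subunits and accessory proteins of the vacuolar proton pump, and 3 transcription factors of the MiT/TFE family. They were taken by name, cathepsins left out, and all 47 are among the 18825 genes of the deposited count table. The cells are live CD45+ leukocytes of the aorta of Apoe-/- mice, which lack apolipoprotein E, fed a western diet for 13 weeks, and were sequenced with 10x Genomics 3' chemistry. The series names 6 mice, and the titles name 2 biological replicates with 2 libraries each. The labels do not say how the mice were divided over these, and the design has a single group, with no mouse of another genotype, diet or time. The authors kept 3002 cells as myeloid and gave them cluster numbers from 0 to 13, so the comparisons are between clusters of the same animals.

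Lysosomes digest what a cell takes up or recycles. The vacuolar proton pump, a membrane sector (V0) that carries protons and a cytosolic sector (V1) that burns ATP, acidifies the lumen so that the hydrolases work, while cofactors present lipids to them and heavily glycosylated membrane proteins line the wall. In plaque macrophages the lysosome receives lipoprotein cholesterol esters, which lysosomal acid lipase splits and the Niemann-Pick proteins export. The transcription factors TFEB, TFE3 and MITF are known to bind the CLEAR element, an E-box in the promoters of many lysosome genes.

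That E-box was looked for in the members' promoters, because these factors are known to bind it in many lysosome genes. Whether they act on the members in these cells was not tested. In RefSeq windows of 250 bases before to 50 after each start (GRCm38.p6), 40 of the 47 members had a promoter, and 11 of these (27.5%) held CACGTG, against 8.09% of 27025 genes in the same table. The longer palindrome TCACGTGA, which contains CACGTG, was in 5 members (12.5%) and in 1.12% of all genes. Both motifs read the same on the 2 strands. By role, CACGTG was found in 5 of 13 hydrolases, 0 of 4 soluble proteins, 2 of 8 membrane proteins, 4 of 12 pump genes and 0 of 3 transcription factors. The windows below, chosen after the motif positions were seen, show 20 bases on either side of the sites, shortened at the start of the gene, for the 5 members whose sites lie upstream of the start and outside annotated exons. Capitals mark CACGTG, and each line runs 5′ to 3′ on the strand of the gene. A match is a description of these letters and no evidence of binding.
Lamp1, chr8:13159080-13159160, plus strand: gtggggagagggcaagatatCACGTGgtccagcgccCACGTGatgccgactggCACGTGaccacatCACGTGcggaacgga
Glb1, chr9:114401010-114401055, plus strand: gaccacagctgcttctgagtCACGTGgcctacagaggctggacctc
Lgmn, chr12:102439116-102439161, minus strand: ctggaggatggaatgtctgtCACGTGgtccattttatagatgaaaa
Atp6v1a, chr16:44139365-44139410, minus strand: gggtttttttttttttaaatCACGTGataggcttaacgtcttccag
Gaa, chr11:119267803-119267848, plus strand: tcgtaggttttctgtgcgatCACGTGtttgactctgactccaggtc
Lamp1, which encodes the main glycoprotein of the lysosomal wall, held 4 copies within its window, the nearest ending 9 bases before the start. The single copies ended 42 bases before the start of Glb1 (beta-galactosidase), 43 before that of Lgmn (legumain, an asparaginyl endopeptidase), 125 before that of Atp6v1a (the catalytic A subunit of V1) and 134 before that of Gaa (acid alpha-glucosidase). The Lgmn and Atp6v1a windows lie between exons of longer annotated transcripts of the same genes. The other members with CACGTG were Gla, Naglu, Mcoln1, Atp6v0b, Atp6v0d1 and Atp6v0e.

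Depth set what could be seen. The 4 libraries held between 236 and 1231 cells and between 1698585 and 5954716 UMIs (unique molecular identifiers, each standing for 1 captured RNA), with no cell barcode shared between libraries, and the smallest cluster and replicate held 13 cells. UMIs were summed over the cells of each cluster in each biological replicate, and levels are given as counts per 1000000 UMIs (CPM), as the mean ± SD of the 2 replicates or as the lowest, median and highest sum. The clusters called macrophage-like (0, 1, 2, 3, 8 and 13) and dendritic-like (4, 11 and 12) were checked against lists of markers. Of 9 macrophage markers 8 were called higher in the first class, and all 6 dendritic markers were called lower. Cluster 8 is the foamy macrophage-like one: 9 of 12 foamy markers, among them Trem2, Spp1 and Gpnmb, were at least 2 times the mean of the other clusters, and the list summed to 81027 and 90285 CPM. Its macrophage markers summed to 40531 and 27711 CPM, with Mertk at 0. Of these 9 markers, 1 was called higher and 4 lower than in the other macrophage-like clusters, and 0 higher and 5 lower than in cluster 3. Cluster 8 is also thin, with 105 cells, 128202 UMIs and a median of 980 UMIs per cell. So is cluster 3, with 325 cells, 335004 UMIs and a median of 834, against a median of 4404 in cluster 0.

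Differences between clusters are log2 fold changes from 1 fit over all 28 sums. An "edgeR adjusted p" is that of edgeR's quasi-likelihood test with Benjamini-Hochberg adjustment over 6657 genes, called under 0.05. The SE is worked back from that test, as the absolute log2 fold change over the square root of its F statistic. Of the members, 45 were tested; Mcoln1, a calcium channel of the lysosomal wall, and Atp6v0c, the proteolipid ring of the pump, had 172 and 66 UMIs in all and were not. The authors drew their clusters from these very counts, which makes the p-values too small, and a call describes the clusters. The titles call the replicates biological, but no label ties them to mice, so part of the spread between them may be technical. The comparisons share sums with each other. In a sum, fewer cells with a gene and less of its RNA per cell cannot be told apart.

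The lysosome genes were not spread evenly over the aortic myeloid cells. The foamy cluster 8 had the highest mean level of 22 of the 47 members: 10 of 17 pump genes, 6 of 14 hydrolases, 3 of 4 soluble proteins and 3 of 9 membrane proteins. Among tested genes this held for 21 of 45 members and for 9.01% of all genes. Clusters 0 and 2 each led for 6 members, the neutrophil-like cluster 7 for 4, cluster 9 (which carries fibroblast markers) for 3, clusters 5 and 13 for 2 each, and clusters 3 and 11 for 1 each.

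**Figure D1:**
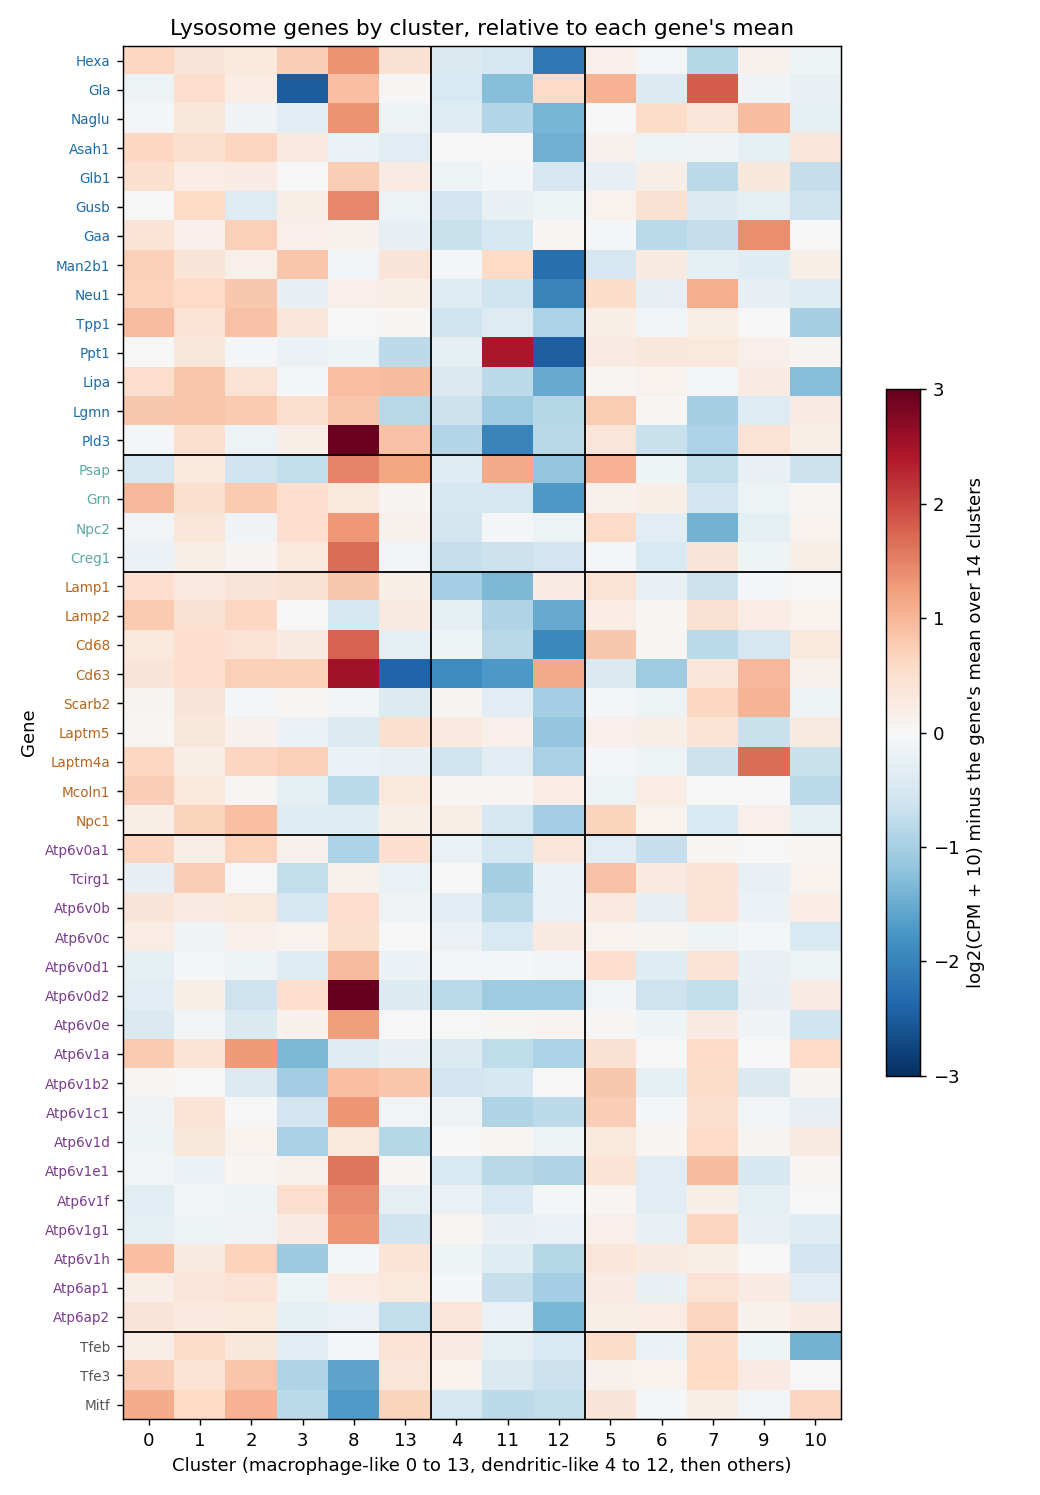
Level of each of the 47 lysosome genes (rows, coloured by role) in each of the 14 clusters (columns), as log2(CPM + 10) of the mean of 2 replicates minus the mean of that gene over the clusters. Colours end at −3 and 3, which Atp6v0d2 in cluster 8 passes; the column of cluster 8 is red for most pump rows and blue for Mitf and Tfe3.

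The 17 pump genes summed to 5769 and 6252 CPM in cluster 8. The next were the neutrophil-like cluster 7 with 3669 and 3904 CPM and the monocyte-like cluster 5 with 3292 and 3322 CPM, and the other clusters lay between 1962 and 3193 CPM. The cluster 8 sums stood above all others, and the 2 replicates were close to each other.

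The other groups had the same leading cluster but another order behind it. Soluble proteins reached 8791 and 7371 CPM in cluster 8, and then 5115 and 5504 CPM in cluster 5. Membrane proteins reached 7389 and 5870 CPM in cluster 8 and 4276 and 4001 CPM in cluster 2. Hydrolases were least set apart, at 4696 and 3563 CPM in cluster 8 against 3366 and 3105 CPM in cluster 0, and lowest in the mature dendritic-like cluster 12 with 887 and 924 CPM. The 3 transcription factors had their lowest means in the thin clusters 8 and 3, with 18.2 and 27.3 CPM in cluster 8 and 40.7 and 33.0 CPM in cluster 3. Cluster 0 had 151 and 159 CPM. The level in cluster 8 rests on 2 UMIs of Tfeb, 1 of Tfe3 and 0 of Mitf, and that in cluster 3 on 4, 5 and 3.

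**Figure D2:**
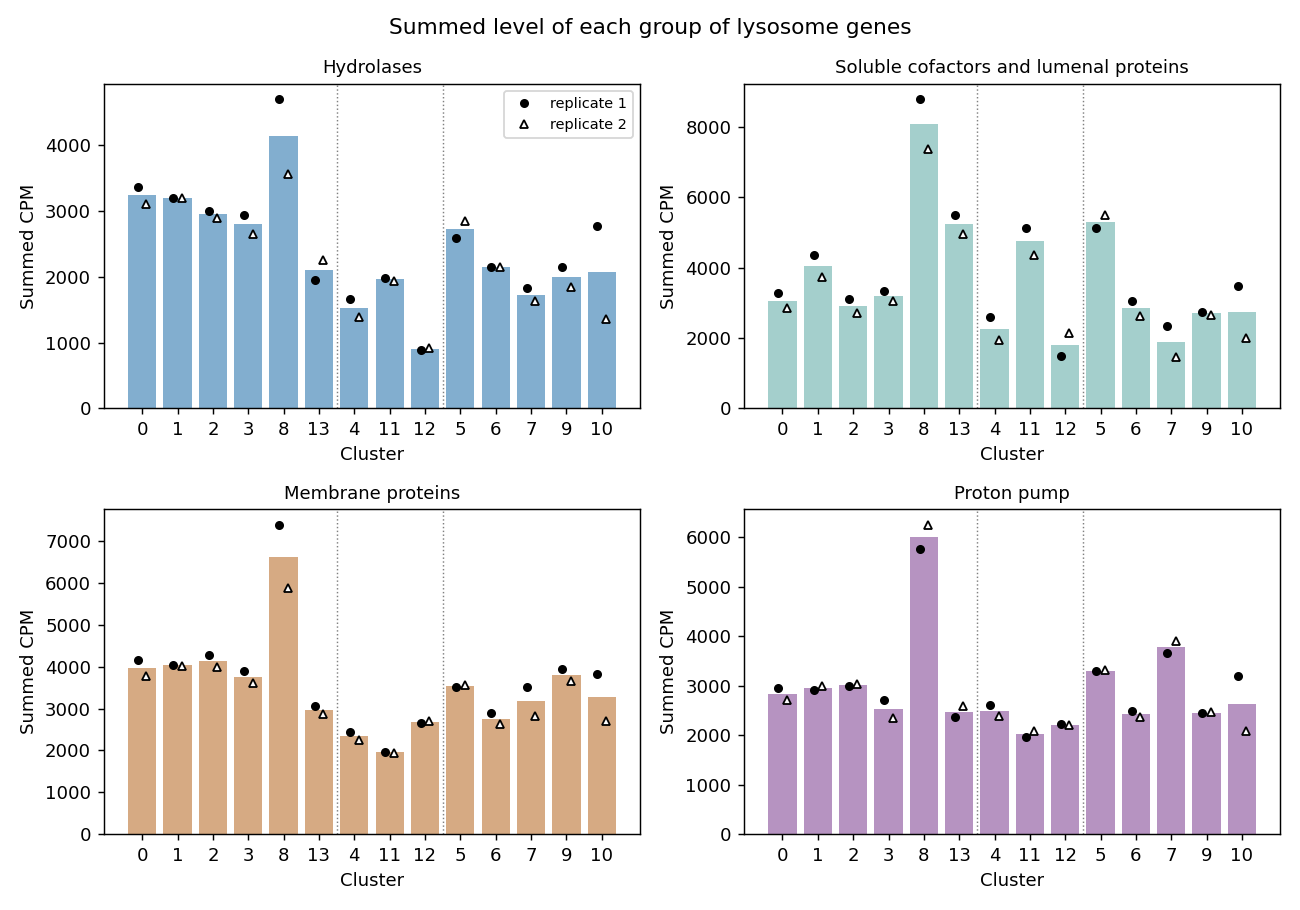
Summed CPM (vertical axis, from 0) of the hydrolases, soluble proteins, membrane proteins and pump genes in each cluster (horizontal axis); bars are means and points the 2 biological replicates. Cluster 8 has the tallest bar in all 4 panels, for the pump 6011 against 3787 CPM in cluster 7, the next.

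Macrophage-like and dendritic-like cells take up material for different ends, degradation in the first and antigen display in the second, and the first comparison asked how the lysosome genes differ between them. Macrophage-like clusters had higher levels of 28 of the 45 tested members and lower levels of none at the threshold; 44 of 45 log2 fold changes were positive, and 34 had an unadjusted p under 0.05. Of all genes tested, 10.5% were called higher and 18.9% lower, and the median log2 fold change was 0.78 over the members and −0.14 over all genes. By role, 11 of 14 hydrolases, 3 of 4 soluble proteins, 6 of 8 membrane proteins, 8 of 16 pump genes and 0 of 3 transcription factors were called higher. For 6 members, every one of the 12 macrophage-like sums lay above every one of the 6 dendritic-like sums (Hexa, Lipa, Pld3, Grn, Creg1 and Atp6v1e1), which holds for 0.796% of genes tested.

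Among the hydrolases, Hexa (9:59539540-59565109, GRCm38, GENCODE M21; plus strand), the alpha subunit of beta-hexosaminidase, which breaks down gangliosides, ran from 473 through a median of 592 to 1219 CPM in macrophage-like sums and from 48.0 through 271 to 332 CPM in dendritic-like sums. The 2 ranges did not overlap, and the log2 fold change was 1.67 ± 0.12 (SE, edgeR adjusted p = 2.39e-14). Lipa, lysosomal acid lipase, which splits cholesterol esters and triglycerides, ran from 106 through 168 to 291 CPM against 6.64, 63.6 and 89.6 CPM, and differed by 1.77 ± 0.19 (edgeR adjusted p = 2.24e-09). Pld3 (7:27532000-27553218, minus strand), a phospholipase D family member that acts as a nuclease on single-stranded nucleic acid, ran from 41.2 through 70.6 to 528 CPM against 5.12, 15.7 and 39.9 CPM, a difference of 2.42 ± 0.27 (edgeR adjusted p = 2.19e-09). Cluster 8 supplied the top of that range, and with cells thinned to 500 UMIs Pld3 was not called (edgeR adjusted p = 0.0763). Neu1, a sialidase, ran from 18.9 through 88.6 to 110.2 CPM against 0, 32.9 and 41.0 CPM, and the ranges overlapped (1.62 ± 0.31, edgeR adjusted p = 9.44e-05). With the 4 libraries as samples, which leaves out clusters 11, 12 and 13, so that cluster 4 alone stands for the dendritic-like class, Hexa, Lipa and Neu1 differed by 1.10, 1.00 and 0.81 and were still called; without library 2-2 Neu1 differed by 3.30. Also called higher were Naglu, Asah1, Gusb, Gaa, Man2b1, Tpp1 and Lgmn, while Gla, Glb1 and Ppt1 were not called.

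Single clusters broke the pattern of their class. Ppt1, palmitoyl-protein thioesterase, was at 579 and 553 CPM in the cDC1-like cluster 11, with the next highest mean, 126 CPM, in the proliferating cluster 6, and was at 9.32 CPM (mean) in the mature dendritic-like cluster 12. This is the single member with its highest level in a dendritic-like cluster. Cluster 12 had the lowest mean of Hexa, Asah1, Neu1, Man2b1, Lipa and Naglu among all clusters, with Naglu at 0.

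Of the soluble proteins, Grn, the precursor of the granulins, ran from 423 through 640.4 to 898 CPM in macrophage-like sums and from 119.9 through 266 to 333 CPM in dendritic-like sums (1.44 ± 0.13, edgeR adjusted p = 1.05e-11). Creg1, a secreted glycoprotein found in lysosomes, ran from 221 through 298 to 1019 CPM against 150.2, 172 and 186 CPM (0.97 ± 0.12, edgeR adjusted p = 1.64e-08). Neither gene's ranges overlapped. Npc2, which hands cholesterol to Npc1, ran from 861 through 1106 to 2439 CPM against 560.3, 785 and 1071 CPM, with overlap (0.59 ± 0.10, edgeR adjusted p = 2.09e-05). Without clusters 3 and 8 Creg1 and Npc2 differed by 0.62 and 0.29 and were still called. Psap, the precursor of the saposins that lift sphingolipids to their hydrolases, was not called (0.29, edgeR adjusted p = 0.0729), and its mean in cluster 11, 3359 CPM, was above that of 4 macrophage-like clusters.

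Membrane proteins had a median log2 fold change of 1.08, and hydrolases of 1.12. Cd68, a macrophage glycoprotein of the LAMP family, ran from 261 through 474 to 1283 CPM against 59.8, 192 and 357 CPM (1.55 ± 0.13, edgeR adjusted p = 1.35e-12). Lamp1 ran from 692 through 841 to 1438 CPM against 241, 314 and 768 CPM (1.13 ± 0.10, edgeR adjusted p = 1.16e-11). Lamp2, which also serves chaperone-mediated autophagy, ran from 218 through 452 to 588 CPM against 99.7, 174 and 283 CPM (1.21 ± 0.12, edgeR adjusted p = 1.95e-10). In all 3 genes the medians were well apart and the extremes overlapped. Cd63 (10:128900989-128912822, plus strand), a tetraspanin of late endosomes and exosomes, ran from 74.0 through 836 to 3458 CPM against 121, 168 and 1329 CPM (1.25 ± 0.12, edgeR adjusted p = 1.82e-10). Its overlap came from both sides: cluster 12 held 1079 and 1329 CPM, and the macrophage-like cluster 13 a mean of 94.1 CPM. Without clusters 3 and 8 its log2 fold change was 0.62, and with the 4 libraries as samples 2.92. In that setting Cd68 and Lamp2 differed by 0.78 and 0.47, and after thinning Lamp1 and Lamp2 by 1.84 and 5.11, all of them called. Laptm5 and Laptm4a were also called higher, Scarb2 and Npc1 not. With the 4 libraries as samples Laptm5 was instead called lower (−0.44, edgeR adjusted p = 0.00778), a gene named after its values were seen.

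The pump was divided. Atp6v1e1, a stalk subunit of V1, ran from 129.7 through 153 to 519 CPM against 73.1, 85.0 and 121 CPM without overlap (1.04 ± 0.15, edgeR adjusted p = 5.17e-07), and was not called after thinning (edgeR adjusted p = 0.0958). Atp6ap1, an assembly subunit of V0, ran from 97.7 through 139 to 170.0 CPM against 48.0, 65.8 and 114 CPM (0.88 ± 0.17, edgeR adjusted p = 7.13e-05), and Atp6v1c1, the C subunit that locks V1 to V0, from 18.9 through 64.5 to 246 CPM against 26.2, 33.4 and 69.3 CPM (0.92 ± 0.27, edgeR adjusted p = 0.00898). Both overlapped, and with the 4 libraries as samples neither was called (0.18 and 0.30, edgeR adjusted p = 0.309 and 0.289). Atp6v0b, Atp6v1a, Atp6v1f and Atp6v1h were called higher too. Atp6v0d2, an isoform of the V0 d subunit made by few cell types, among them osteoclasts, had a fitted difference of 5.30 ± 1.17 (edgeR adjusted p = 0.000511) on sums from 0 through 11.6 to 751 CPM against 0, 0 and 3.70 CPM. All 4 dendritic UMIs of this gene came from 1 cell of cluster 4 and the other dendritic-like clusters were at 0, so the size of that difference is not determined, and without library 1-1 or with cells thinned to 500 UMIs it was not called (edgeR adjusted p = 1 in both).

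The rest of the pump was not called. The ubiquitous d isoform Atp6v0d1 was at 122 ± 8.48 CPM in macrophage-like and 111 ± 4.40 CPM in dendritic-like clusters (0.01 ± 0.15, edgeR adjusted p = 1). The a-subunit isoforms Atp6v0a1 and Tcirg1 differed by 0.38 ± 0.32 and 0.36 ± 0.24 (edgeR adjusted p = 0.417 and 0.299), and Atp6v0e, Atp6v1b2, Atp6v1d, Atp6v1g1 and Atp6ap2 were not called either. A missed call does not show equal levels.

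The transcription factors were not called with all clusters in. Tfeb was at 20.9 ± 5.31 CPM in macrophage-like and 14.2 ± 4.18 CPM in dendritic-like clusters (0.58 ± 0.43, edgeR adjusted p = 0.352), and Tfe3 at 48.5 ± 0.603 and 31.5 ± 1.54 CPM (0.20 ± 0.39, edgeR adjusted p = 0.81). Mitf was at 34.3 ± 4.95 and 10.2 ± 1.76 CPM, but its fitted difference is void because cluster 8 held none of its UMIs. Without clusters 3 and 8, the thin ones, Mitf and Tfe3 were both called higher in macrophage-like clusters (2.33 and 1.06, edgeR adjusted p = 4.41e-07 and 0.000477). In that setting 34 members in all were called higher, while 1331 of 6657 genes were called higher and 1061 lower. The median log2 fold change was 0.84 over the members and 0.12 over all genes. Atp6v0e, named after its values were seen, was then called lower (−0.32, edgeR adjusted p = 0.0171).

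**Figure D3:**
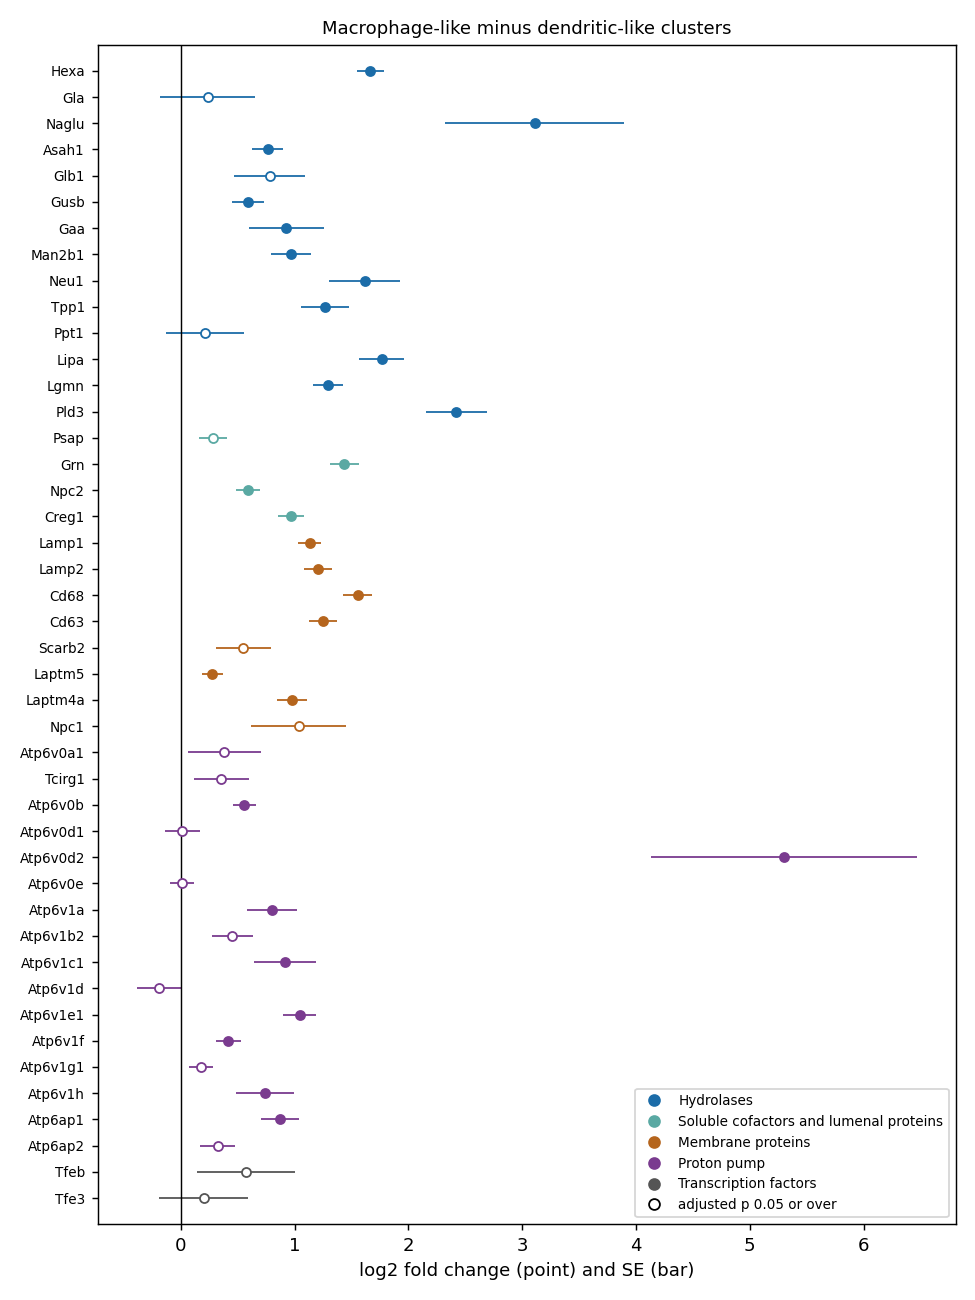
Log2 fold change of macrophage-like minus dendritic-like clusters (horizontal axis; bars are SE) for the 44 tested members other than Mitf (rows, coloured by role); filled points had an adjusted p under 0.05. Nearly all points lie right of 0, hydrolases such as Hexa at 1.67 farther out than most pump genes, with Atp6v0d2 at 5.30.

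Other lysosome genes, from lists that hold no member, were read beside these. Cathepsins went with the members, with 8 of 11 tested called higher and 0 lower. Ctsd, an aspartic protease, was at 1736 ± 292 CPM in macrophage-like and 159 ± 46.6 CPM in dendritic-like clusters (3.17 ± 0.16, edgeR adjusted p = 1.95e-18), and Ctsb and Ctsl, cysteine proteases, differed by 2.19 and 2.70. Of 20 other hydrolases and lumenal proteins 9 were called higher and 2 lower. Pla2g15, a lysosomal phospholipase, was higher by 2.29, while Ifi30, a thiol reductase of antigen processing, was lower, at 464 ± 68.5 against 1854 ± 245 CPM (−1.91 ± 0.09, edgeR adjusted p = 3.45e-20).

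Of 14 other membrane proteins 5 were called higher and 1 lower, with Slc11a1, a metal ion exporter of phagosomes, at 120.4 ± 5.90 against 15.8 ± 7.92 CPM (2.88 ± 0.28, edgeR adjusted p = 9.06e-11), Slc15a3 higher by 1.41 and Laptm4b lower (−3.36). Of 8 other pump subunits and assembly factors 0 were called higher and 3 lower, with 5 of the 8 log2 fold changes positive and a median of 0.21. These were Rogdi, at 14.4 ± 2.81 against 190 ± 19.7 CPM (−3.48 ± 0.46, edgeR adjusted p = 1.39e-07), Ncoa7 (−2.40) and the a-subunit isoform Atp6v0a2 (−2.03). Of 18 genes of the Ragulator complex and of lysosomal sorting, 6 were called higher, among them Lamtor4 (2.02) and Lamtor2 (0.64), and 1 lower, the mannose 6-phosphate receptor M6pr (−0.77). Beside all of these, 10 of 12 markers of dissociation stress were called lower in macrophage-like clusters, but without the thin clusters 3 and 8 all 12 were called higher. They summed to between 7276 and 23980 CPM in dendritic-like clusters. Their part in the differences was not tested.

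The foamy cluster 8 was compared with the other 5 macrophage-like clusters. There 17 of 45 members were called higher and 3 lower, where 6.35% of all genes were called higher and 12.8% lower, and the median log2 fold change was 0.39 over the members and −0.92 over all genes. By role, 8 of 16 pump genes, 4 of 14 hydrolases, 3 of 4 soluble proteins and 2 of 8 membrane proteins were higher, while 2 membrane proteins and 1 transcription factor were lower. Since most genes lie below 0 here, a member at 0 is above the typical gene. Both sums of cluster 8 lay above every other macrophage-like sum for 17 of 45 members and for 445 of 6657 genes tested. They lay below every one for 3 members and for 1391 genes. Of all calls 33.2% were in the higher direction, and 56.9% with DESeq2 and 16.9% with limma-trend.

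Atp6v0d2 (4:19876841-19922605, minus strand) stood apart from every other member. It was at 655 and 751 CPM in cluster 8 and between 0 and 24.4 CPM in the other macrophage-like sums, with a median of 9.62 CPM. The ranges were far from touching, and the difference was 6.35 ± 0.39 (edgeR adjusted p = 2.21e-15). All 4 libraries showed it, with 831, 606, 695 and 831 CPM in cluster 8. In single cells, 47 of 105 cells of cluster 8 had a UMI of it (44.8%; exact 95% interval 35.0 to 54.8), against 5 of 325 cells in cluster 3 (1.54%), also thin, and 1 of 276 in the dendritic-like cluster 4 (0.362%), which has a median of 7192.5 UMIs per cell. With every cell thinned to 500 UMIs the shares were 23.8%, 0.615% and 0.362%. Cells of both replicates were pooled for these shares, and the interval covers counting error only, not the spread between replicates.

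The ubiquitous isoform was also higher in cluster 8, though by much less. Atp6v0d1 (8:105524465-105566047, minus strand) was at 237 and 232 CPM there and between 70.0 and 131 CPM in the other macrophage-like sums (1.23 ± 0.30, edgeR adjusted p = 0.00246). Of the UMIs of both d isoforms, Atp6v0d2 made up 73.5% (36 of 49; exact 95% interval 58.9 to 85.1) and 76.4% (55 of 72; 64.9 to 85.6) in the replicates of cluster 8. In no other sum was it over 25.0%, and cluster 1 had 11.6% and 9.73%. Such shares are within 1 pair of transcripts counted at their 3' ends, and intervals cover counting error only.

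The a-subunit isoforms did not follow. Atp6v0a1 was at 18.2 and 13.7 CPM in cluster 8, on 2 UMIs, and between 37.7 and 70.5 CPM in the other macrophage-like sums (−1.85 ± 0.88, edgeR adjusted p = 0.14), and Tcirg1 (19:3896050-3907133, minus strand), the a3 isoform of osteoclasts and immune cells, was at 91.0 and 41.0 CPM against 14.1 to 107 CPM (0.22 ± 0.53, edgeR adjusted p = 0.861). Tcirg1's share of the UMIs of the pair was 83.3% and 75.0% in cluster 8, on 6 and 4 UMIs. On more UMIs it was 87.4% and 74.2% in the monocyte-like cluster 5, then 75.6% and 81.8% in the proliferating cluster 6 and 69.4% and 69.8% in cluster 1. Cluster 0 had 46.8% and 36.2%.

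**Figure D4:**
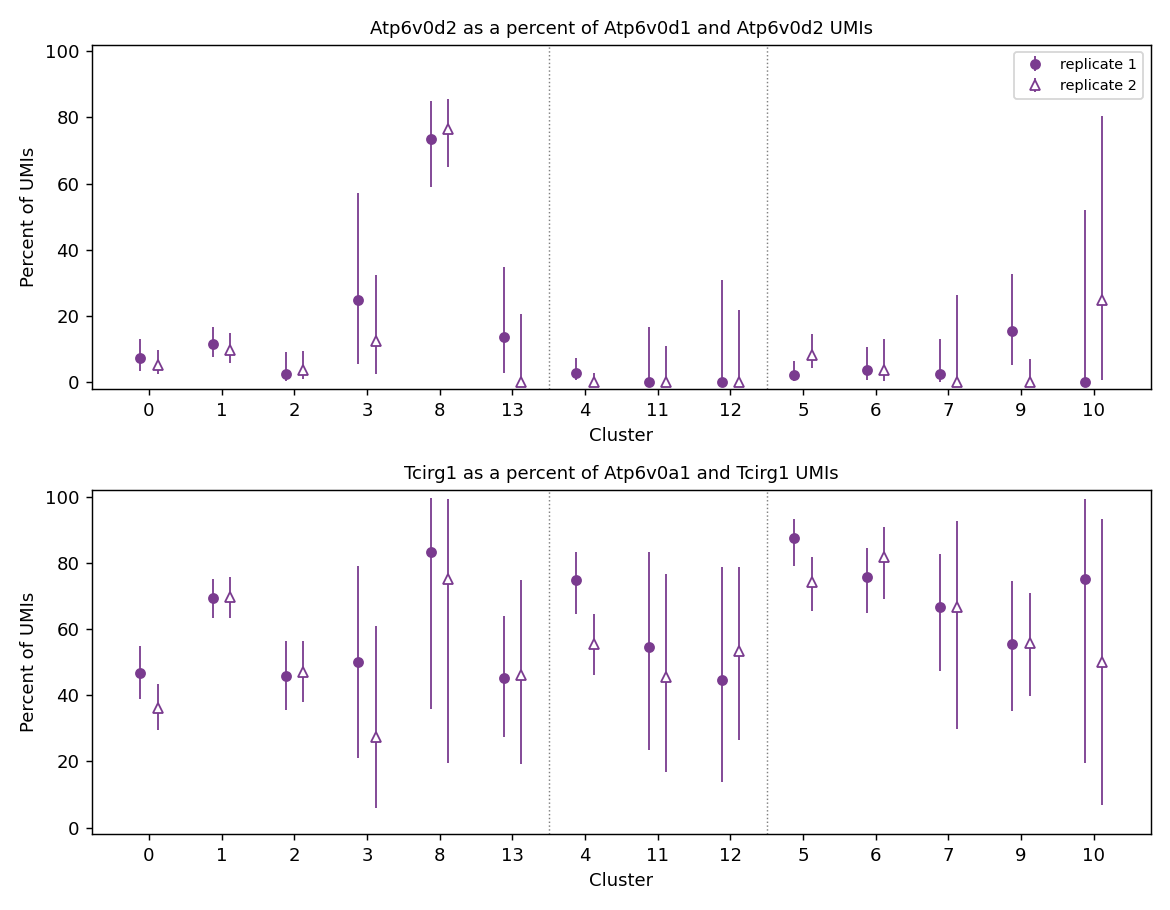
Percent of UMIs (vertical axis) taken by Atp6v0d2 among both d isoforms (top) and by Tcirg1 among Tcirg1 and Atp6v0a1 (bottom) in each cluster (horizontal axis), 1 point per biological replicate with exact 95% intervals for counting error. In the top panel only the points of cluster 8, at 73.5% and 76.4%, are above 25.0%; in the bottom panel the shares vary over clusters and the intervals of thin clusters are wide.

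Several subunits of V1 were higher in cluster 8 as well. Atp6v1e1 was at 473 and 519 CPM against 129.7 to 195 CPM (1.67 ± 0.22, edgeR adjusted p = 3.34e-07), and Atp6v1g1, another stalk subunit, at 746 and 1024 CPM against 199 to 443 CPM (1.53 ± 0.17, edgeR adjusted p = 9.38e-09). Both were free of overlap. Atp6v1c1 was at 91.0 and 246 CPM against 18.9 to 95.1 CPM and overlapped (1.64 ± 0.43, edgeR adjusted p = 0.00584), and without library 2-1 it was not called (1.11, edgeR adjusted p = 0.186). Atp6v0e, Atp6v1f and Atp6v1b2 were also called higher, while the catalytic Atp6v1a was not, with its highest mean, 339.8 CPM, in cluster 2. Atp6v0d1 was not called after thinning (0.82, edgeR adjusted p = 0.264), while Atp6v0d2, Atp6v1e1 and Atp6v1g1 were called under all 15 alternatives. The 8 tested genes among the other pump subunits and assembly factors did not follow, with 0 called higher and 1 lower. Their median log2 fold change was −2.48, against −0.92 over all genes.

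Among hydrolases, Pld3 had the largest difference, with 528 and 450.5 CPM in cluster 8 and 41.2 to 115 CPM in the other macrophage-like sums (2.83 ± 0.28, edgeR adjusted p = 2.48e-10). Gusb, beta-glucuronidase, was at 455 and 328 CPM against 90.4 to 216 CPM (1.42 ± 0.25, edgeR adjusted p = 4.55e-05), and Hexa at 1219 and 874 CPM against 473 to 731 CPM (0.79 ± 0.17, edgeR adjusted p = 0.000472). None of the 3 overlapped. Without library 1-2, the largest, Gusb and Hexa were not called (1.01 and 0.37, edgeR adjusted p = 0.092 and 0.54). Gla, alpha-galactosidase A, was at 146 and 95.6 CPM against 0 to 94.0 CPM (1.64 ± 0.56, edgeR adjusted p = 0.0345), and with cluster 3 left out of the others it was not called (0.77, edgeR adjusted p = 0.237). Gla was also not called without library 1-1, 1-2 or 2-2 (edgeR adjusted p = 0.0567, 0.209 and 0.117), Gusb after thinning (0.57, edgeR adjusted p = 0.404) and Hexa with the 4 libraries as samples (0.41, edgeR adjusted p = 0.0705), whereas Pld3 was called under all 15 alternatives. Lipa, the acid lipase of foam cell biology, was at 291 and 150.2 CPM in cluster 8 and was not called; the macrophage-like cluster 13 had about the same mean, 227 against 221 CPM.

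Of the soluble proteins, Psap was at 4696 and 3904 CPM in cluster 8 and 877 to 3804 CPM elsewhere in the class (1.52 ± 0.17, edgeR adjusted p = 8.13e-09), and cluster 13 with 3509 ± 418 CPM came nearest. Npc2 was at 2439 and 2293 CPM against 861 to 1367 CPM (1.14 ± 0.16, edgeR adjusted p = 5.75e-07), and Creg1 at 1019 and 751 CPM against 221 to 366 CPM (1.60 ± 0.18, edgeR adjusted p = 4.62e-09). No sum of the other clusters reached cluster 8 in any of these. Npc2 was not called without library 1-2 (0.82, edgeR adjusted p = 0.0767) and was at 0.73 with the 4 libraries as samples; Psap and Creg1 were called under all 15 alternatives. Grn was not called, with 637 and 423 CPM in cluster 8 and its highest mean, 845 ± 75.6 CPM, in cluster 0.

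The wall proteins split. Cd63 was at 3458 and 2798 CPM in cluster 8 and between 74.0 and 929 CPM in the rest of the class (2.50 ± 0.16, edgeR adjusted p = 1.56e-15), and Cd68 at 1147 and 1283 CPM against 261 to 522 CPM (1.53 ± 0.16, edgeR adjusted p = 2.6e-09). Cd63 was seen in 82.9% of the cells of cluster 8 and in 53.5% of those of cluster 3, and after thinning in 61.0% and 32.6%. With the 4 libraries as samples the differences of Cd63 and Cd68 were 1.49 and 1.01, and both were called under all 15 alternatives. Lamp2 was lower, at 218 and 246 CPM against 321 to 588 CPM without overlap (−0.97 ± 0.23, edgeR adjusted p = 0.00206), and so was Laptm5, an adaptor that sends receptors to lysosomes, at 746 and 478 CPM against 717 to 1189 CPM (−0.64 ± 0.18, edgeR adjusted p = 0.00821). Neither was called without library 1-2 (−0.84 and −1.09, edgeR adjusted p = 0.207 and 0.0625), nor Lamp2 without library 2-1 (−0.78, edgeR adjusted p = 0.0931) or Laptm5 without library 2-2 (−0.63, edgeR adjusted p = 0.152). Lamp1 was at 1438 and 846 CPM and was not called (0.39, edgeR adjusted p = 0.089). The difference between Lamp1 and Lamp2 was not tested. Lying below every other macrophage-like sum, as Lamp2 did, held for 1391 of 6657 genes tested.

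The transcription factors of the family were near the limit of detection in cluster 8. Mitf (6:97807052-98021349, plus strand) had 0 of 128202 UMIs there, where a count of 0 allows up to 23.4 CPM, and a mean of 41.2 ± 5.94 CPM in the other macrophage-like clusters, so it was at least 1.76-fold lower than that mean, with the floor of 3 UMIs taken over the cluster. It was called lower (edgeR adjusted p = 0.0404) but not with DESeq2 (adjusted p = 0.0845) or without any 1 of the 4 libraries (edgeR adjusted p from 0.0536 to 0.147). A UMI of Mitf was seen in 0 of 105 cells of cluster 8, which allows a share of cells with a UMI of up to 2.86% by that floor, and in 157 of 635 cells of cluster 0 (24.7%), whose cells are deeper; after thinning the share in cluster 0 was 2.52%, under that limit. Tfe3 had 1 UMI in cluster 8. Over pooled UMIs, most of them from the deep clusters, it was 8.54 times as high in the others, with an exact 95% interval of 1.53 to 338. It was not called (−2.67 ± 1.05, edgeR adjusted p = 0.0696). With cluster 3 left out of the others it was called lower (−3.08, edgeR adjusted p = 0.0172), still on that 1 UMI. Tfeb had 2 UMIs, at 18.2 and 13.7 CPM against 8.14 to 33.7 CPM, and was not called (−0.45 ± 0.95, edgeR adjusted p = 0.831). Against cluster 3, which is as thin, no lower level was shown: Mitf had 3 UMIs there and no fold can be given (edgeR adjusted p = 0.499), Tfe3 had 5 (−1.02 ± 1.49, edgeR adjusted p = 0.761) and Tfeb 4 (0.32 ± 1.22, edgeR adjusted p = 0.965).

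Depth and RNA composition moved with these results. All 12 dissociation stress markers were lower in cluster 8 than in the other macrophage-like clusters; they summed to 892 and 860 CPM there and to 51461 and 56415 CPM in cluster 0. The nuclear RNA Malat1 was at 389 ± 145 CPM in cluster 8, 1117 ± 987 CPM in cluster 3 and 21559 ± 91.4 CPM in cluster 0. The median percent of mitochondrial counts was 3.64, 5.96 and 3.75 in these clusters. Neutrophil, endothelial and T and NK cell markers were all at 0 in cluster 8, and fibroblast markers summed to 528 and 355 CPM there with Col3a1 at 0. Shorter transcripts stood higher in the thin clusters: over the 45 members, the log2 ratio of cluster 8 to clusters 0, 1, 2 and 13 had a Spearman correlation of −0.54 with spliced length, and that of cluster 3 one of −0.42, while over 6490 genes both were −0.46. The members share their libraries and sums, and this measure was added after the values were seen. The median spliced length was 2163 bases for the 17 members called higher, 2560 for those not called and 3604 for the 3 called lower. The part of stress, nuclear RNA and length in the differences was not tested.

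Cluster 3 shares the low depth, the low Malat1 and the low stress genes, summing to 2067 and 1136 CPM, and so gives a second reference for cluster 8. Its macrophage markers summed to 36579 and 37050 CPM, with 9 of 12 resident macrophage markers at least 2 times the mean of the other clusters; hemoglobin and other erythroid markers summed to 27912 CPM in its replicate 1 and to 42.4 CPM in its replicate 2. Against cluster 3, cluster 8 had 17 of 45 members higher and 1 lower, where 1.98% of all genes were called higher and 4.1% lower, and the medians were 0.81 and −0.55. With RLE scaling the median of all genes was −0.24, and the members' median stayed 1.36 above it, as with TMM. Of all calls 32.6% were in the higher direction, and 57.7% with RLE, 68.1% with DESeq2 and 14.8% with limma-trend.

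The pump again gave the most calls, 9 of 16. Of 8 other pump subunits and assembly factors 0 were called higher and 0 lower, with a median of −1.58 against −0.55 over all genes. Atp6v0d2 was at 655 and 751 CPM in cluster 8 and 24.4 and 14.1 CPM in cluster 3 (5.17 ± 0.57, edgeR adjusted p = 2.26e-08). Atp6v1c1 differed by 2.32 ± 0.59 (edgeR adjusted p = 0.0109), on replicates of 91.0 and 246 against 57.0 and 18.9 CPM. Atp6v1b2, the B subunit of V1 in most cells, was at 164 CPM in both replicates of cluster 8 and at 32.6 and 37.7 CPM in cluster 3 (2.06 ± 0.49, edgeR adjusted p = 0.00593). Atp6v1e1 differed by 1.46 ± 0.29 (edgeR adjusted p = 0.000544) and Atp6v0d1 by 1.29 ± 0.37 (edgeR adjusted p = 0.0297), and Atp6v0b, Atp6v0e, Atp6v1f and Atp6v1g1 were called higher as well. In each of the 5 given with a difference, both replicates of cluster 8 lay above both of cluster 3. Atp6v0d1 was named as a paired isoform and the others because they were called higher here. The calls rest on the same sums, so this separation adds no support. Of all tested, 13 of 16 pump genes, 25 of 45 members and 12.3% of genes lay above in this way. Below lay 1 pump gene, 6 members and 2246 of 6657 genes. Of the a-subunit isoforms, neither Atp6v0a1, at 18.2 and 13.7 against 48.8 and 37.7 CPM (−1.50 ± 1.04, edgeR adjusted p = 0.471), nor Tcirg1, at 91.0 and 41.0 against 48.8 and 14.1 CPM (1.09 ± 0.71, edgeR adjusted p = 0.435), was called. Atp6v0d2 and Atp6v1e1 were called under all 14 alternatives. Atp6v1c1 was not called without library 2-1 or 2-2 (edgeR adjusted p = 0.249 and 0.0942), Atp6v1b2 without library 1-2 or 2-1 (edgeR adjusted p = 0.166 and 0.136), and Atp6v0d1 without any 1 library (edgeR adjusted p from 0.103 to 0.236). Atp6v0d1 was also not called with no filter on low counts or with the 4 libraries as samples (edgeR adjusted p = 0.0971 and 0.0565). The same held after thinning and without the 5% deepest cells (edgeR adjusted p = 0.229 and 0.054).

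Of the hydrolases, Pld3 was at 528 and 450.5 against 65.1 and 61.3 CPM (2.84 ± 0.37, edgeR adjusted p = 4.83e-07), and Gusb at 455 and 328 against 163 and 156 CPM (1.15 ± 0.31, edgeR adjusted p = 0.0171). Gla was called too (5.10 ± 1.06, edgeR adjusted p = 0.00123), on 15 UMIs in cluster 8 and 1 in cluster 3, a ratio of 39.2 over pooled UMIs with an exact 95% interval of 6.03 to 1650, and its fitted difference was 8.72 without library 2-1. Its level in cluster 3, 2.36 CPM, was the lowest of any cluster. All soluble proteins but Grn were called: Psap by 2.12 ± 0.25 (edgeR adjusted p = 7.04e-08), Creg1 by 1.26 ± 0.23 (edgeR adjusted p = 0.000173) and Npc2 by 0.71 ± 0.21 (edgeR adjusted p = 0.0325). Cd63 differed by 1.68 ± 0.22 (edgeR adjusted p = 4.07e-07) and Cd68 by 1.40 ± 0.22 (edgeR adjusted p = 1.32e-05). Laptm4a, a small transmembrane protein of lysosomes, was the 1 member lower, at 200.2 and 177 against 382 and 344 CPM (−1.05 ± 0.30, edgeR adjusted p = 0.0252). Pld3 and Psap were called under all 14 alternatives and Gla under the 13 run. Leaving out a library lowered the 17 calls to 14 without library 1-1, 6 without 1-2, 8 without 2-1 and 9 without 2-2. The calls of all genes fell too, from 132 of 6657 higher to 118 of 6085, 61 of 5284, 80 of 6388 and 73 of 6029 in the same order. Without library 1-2, Gusb, Creg1, Npc2, Cd63 and Cd68 were not called (edgeR adjusted p = 0.51, 0.261, 0.577, 0.147 and 0.105). Gusb was also not called without library 2-1 or 2-2 (edgeR adjusted p = 0.0765 and 0.169), with the 4 libraries as samples (edgeR adjusted p = 0.0688) or after thinning (edgeR adjusted p = 0.485), and the calls of Npc2 and Laptm4a were lost without any 1 library. Npc2 was also not called with the 4 libraries as samples or after thinning (edgeR adjusted p = 0.279 and 0.0987). Laptm4a was also not called with RLE, DESeq2, no filter, thinning or without the 5% deepest cells.

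**Figure D5:**
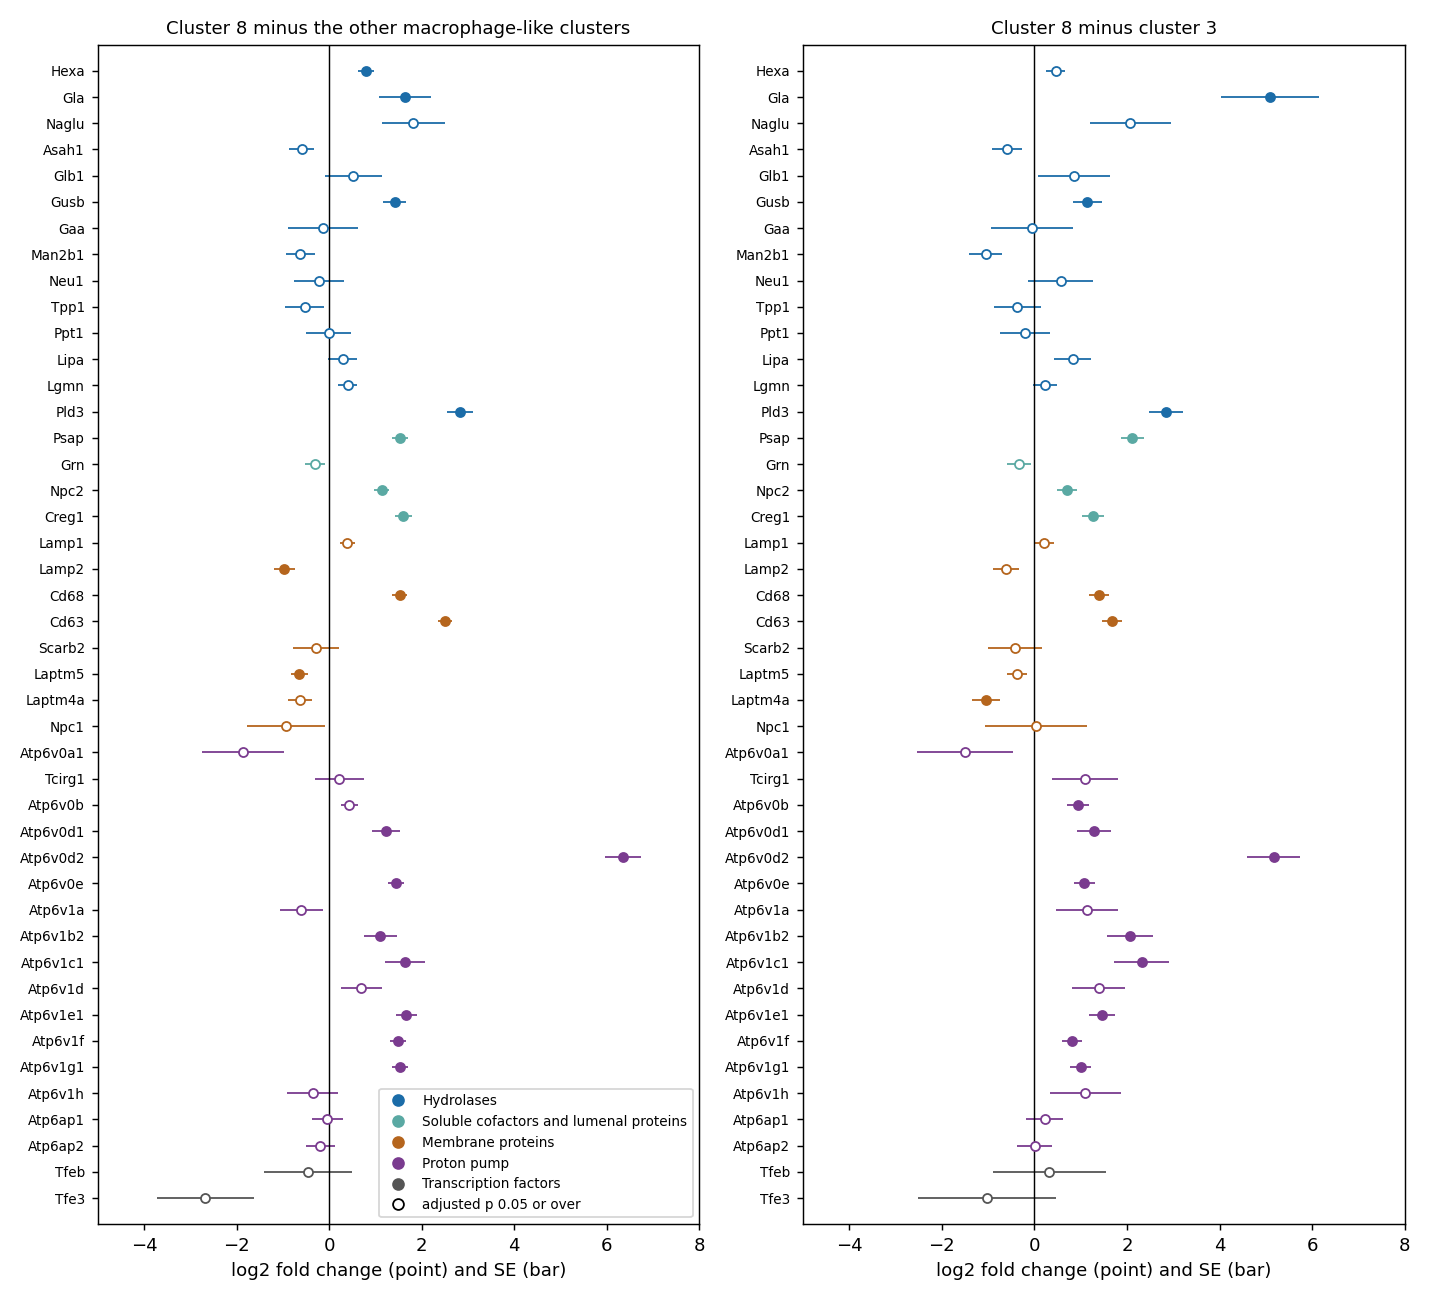
Log2 fold change (horizontal axes; bars are SE) of cluster 8 minus the other macrophage-like clusters (left) and minus cluster 3 (right) for the 44 tested members other than Mitf (rows, coloured by role); filled points had an adjusted p under 0.05. Atp6v0d2 is farthest right on the left side at 6.35 and on the right side at 5.17, and the 2 sides share the sums of cluster 8.

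The monocyte-like cluster 5 was set against the macrophage-like clusters, since monocytes are the cells from which many plaque macrophages come. Here 7 of 45 members were called higher and 5 lower, where 20.2% of all genes were called higher and 4.49% lower, and the median was 0.08 over the members and 0.26 over all genes. The share of members called higher, 15.6%, was below that of all genes, but this depended on the thin clusters. Without clusters 3 and 8, 11 of 45 members were called higher and 7 lower, against 963 and 659 of 6657 genes. The medians were then 0.09 over the members and 0.02 over all genes. Of all calls 81.8% were in the higher direction, and 69.0% with DESeq2.

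The higher members were 5 pump genes and 2 genes of sphingolipid breakdown. Tcirg1 was at 111 and 123 CPM in cluster 5, above all 12 macrophage-like sums, which ran from 14.1 through 54.3 to 107 CPM (1.09 ± 0.18, edgeR adjusted p = 8.2e-06). Gla was at 119 and 151 CPM against 0 through 66.8 to 146 CPM (1.57 ± 0.23, edgeR adjusted p = 1.22e-06), and without clusters 3 and 8 the difference was 0.98. Psap was at 2951 and 3387 CPM against 877, 1441 and 4696 CPM (0.86 ± 0.16, edgeR adjusted p = 5.99e-05). Apart from Tcirg1 these overlapped. Lying above all 12 sums held for 1 of 45 members and for 381 of 6657 genes tested. Atp6v1b2 (0.82 ± 0.17, edgeR adjusted p = 0.000194), Atp6v1c1 (0.66 ± 0.20, edgeR adjusted p = 0.0109), Atp6v0d1 (0.57 ± 0.16, edgeR adjusted p = 0.00582) and Atp6v1d were also called higher. With limma-trend none of the 7 was called, and without library 1-2 the number called higher was 3. Of all genes, 418 of 6657 were called higher with limma-trend and 706 of 5284 without library 1-2.

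The lower members were 3 hydrolases, a soluble protein and a tetraspanin. Man2b1, lysosomal alpha-mannosidase, was at 116 and 126 CPM, below all macrophage-like sums, which ran from 137 through 234 to 382 CPM (−0.95 ± 0.18, edgeR adjusted p = 7.71e-05). Lipa was at 107 and 130.1 CPM against 106, 168 and 291 CPM (−0.58 ± 0.18, edgeR adjusted p = 0.0144). Hexa was at 474 and 440.1 CPM against 473, 592 and 1219 CPM (−0.50 ± 0.14, edgeR adjusted p = 0.00606), Creg1 at 241 and 282 CPM against 221, 298 and 1019 CPM (−0.38 ± 0.14, edgeR adjusted p = 0.0453), and Cd63 at 353 and 441 CPM against 74.0, 836 and 3458 CPM (−0.87 ± 0.17, edgeR adjusted p = 0.000108). These 4 overlapped with the macrophage-like sums. Lying below all of those sums held for 1 of 45 members, Man2b1, and for 54 of 6657 genes tested. Without clusters 3 and 8, Hexa, Creg1 and Cd63 were not called (edgeR adjusted p = 0.145, 0.933 and 0.333), while Tfe3 and Mitf were called lower in cluster 5 (−0.56 and −0.66, edgeR adjusted p = 0.0467 and 0.0455). Without library 1-2 a single member was called lower, and 104 of 5284 genes tested. None of the 11 called members named with statistics was called under all alternatives. With all clusters in, Tfeb (0.57 ± 0.33, edgeR adjusted p = 0.219), Tfe3 (0.29 ± 0.32, edgeR adjusted p = 0.558), Atp6v0a1 (−0.63 ± 0.34, edgeR adjusted p = 0.183) and Atp6v0d2 (−0.89 ± 0.57, edgeR adjusted p = 0.28) were not called, nor was Mitf, at 32.1 ± 11.4 CPM in cluster 5 and 34.3 ± 4.95 CPM in the macrophage-like clusters. Of the dissociation stress markers, 10 of 12 were called higher in cluster 5, and without clusters 3 and 8 none was called higher and 11 lower; their part was not tested.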

How the data were processed

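Reads were aligned to mm10 by Cell Ranger 3.0.2, per the labels' protocols, and Seurat 3.1.1 was used, per the submitters' processing notes. The sources used here give no cell filter, doublet step or clustering setting, and doublets were not treated further. The deposited table holds raw UMI counts; the totals the authors deposited for each cell equal its sums in all 3002 cells. The authors' deposited natural log table was not tested, and the percent of mitochondrial counts deposited per cell only describes clusters. Members and lists were chosen with earlier results of these data known.

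Counts of each deposited cluster were summed per biological replicate (28 sums; 7653301 and 8240083 UMIs per replicate) and fitted with edgeR 4.0.16 in R 4.3.3 (filterByExpr, TMM, glmQLFit, glmQLFTest; a term per cluster, the replicate as a block because its clusters come from the same animals; 13 residual degrees of freedom), two-sided, with contrasts of mean log levels. Tested on simulated counts of the cluster 8 comparison, the fit missed most of the smaller changes and some of the larger, and the mark it had to reach was lowered after its result was seen. Alternatives, among them DESeq2 1.42.0 and limma 3.58.1, are in the closing section. Genes named with their test results are up to 4 called members per role with the largest fold change and a mean of 50 CPM or more in 1 of the classes compared, the transcription factors and the paired isoforms, and up to 3 called genes per list of other lysosome genes (hydrolases, cathepsins, membrane proteins, pump factors, Ragulator and sorting). 1 gene that this rule names is not reported here. Gene coordinates are those of GENCODE M21 and promoters those of RefSeq; the rule for the windows shown was widened after the motif positions were seen. Intervals and floors (3 UMIs per group) cover counting error only.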

Additional observations from a re-analysis of the deposited data

How the results depend on the processing

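With 2 replicates, 1 group of mice and 128202 UMIs in cluster 8, calls there are limited by depth, and a missed call does not show equal levels. Over all alternatives, 929 values for single genes kept direction and side of the threshold, 101 lost the call, 14 gained one and 16 reversed. The replicate block changed little: without it the comparisons gave 28 higher and 0 lower, 18 and 3, 16 and 1, and 7 and 4, and 2 calls named above were lost, Npc2 in cluster 8 against cluster 3 (adjusted p = 0.0652) and Creg1 in cluster 5 (adjusted p = 0.054). The causes of the changes below were not tested, except that thinning to 500 UMIs left 24 members to test.

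Macrophage-like against dendritic-like clusters: 12 members were higher after thinning, and 1 was lower with the 4 libraries as samples and 1 without clusters 3 and 8. Of all genes, 174 of 1294 were higher after thinning. Lower were 1748 of 5366 with the 4 libraries and 1061 of 6657 without clusters 3 and 8. Cluster 8 against the other macrophage-like clusters: 7 were lower with limma-trend, 9 with the 4 libraries as samples, and 0 to 2 with a library left out. Of all genes, 2745 of 6657 were lower with limma-trend and 1414 of 5366 with the 4 libraries. With a library left out, 402 to 709 genes were lower. Cluster 8 against cluster 3: 9 were higher after thinning and 6 to 14 with a library left out. For all genes these numbers were 74 of 1294 and 61 to 118. The number of members lower was 0 with RLE, DESeq2, no filter, thinning, without the 5% deepest cells and with any library left out. It was 5 with limma-trend, 2 with 9 clusters in the fit and 3 with the 4 libraries as samples. Of all genes, 1436 of 6657, 402 of 5090 and 561 of 5366 were lower in these 3 settings. Cluster 5 against macrophage-like clusters: 0 were higher with limma-trend, 1 after thinning, 11 without clusters 3 and 8 and 3 to 8 with a library left out. For all genes these numbers were 418 of 6657, 239 of 1294, 963 of 6657 and 706 to 1204. Of the members, 8 were lower with RLE, 1 with limma-trend, 2 with no filter, 2 after thinning and 1 to 5 with a library left out. For all genes these were 381 of 6657, 63 of 6657, 221 of 16087, 71 of 1294 and 104 to 285.

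Reversed between macrophage-like and dendritic-like clusters were Tfe3 (−0.475 with 4 libraries as samples, −0.637 without the deepest cells, −0.783 to 0.988 with a library left out), Atp6v0d1 (−0.0122 and −0.00475 in the same settings, −0.0411 to 0.114 with a library left out, −0.128 after thinning and −0.179 without clusters 3 and 8) and Tcirg1 (−0.182 with 4 libraries as samples). In cluster 8 against its class Tcirg1 was −0.122 with 4 libraries as samples, −0.00182 without the deepest cells, and −0.0228 to 0.444 with a library left out, below 0 without 1-2 and 2-1 (−0.00636). In cluster 5 without clusters 3 and 8, Tfe3 was −0.563, Mitf −0.658 and Atp6v0d2 0.464. Of these, Tfe3 and Mitf in cluster 5 were called and the others not.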
